A study of Mus musculus with 6 samples.

Results

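The genes described here encode the receptors through which serotonin, dopamine, noradrenaline and adrenaline, and the muscarinic arm of acetylcholine signalling reach hippocampal cells. The list held 32 genes of the 55471 in the count table: 14 serotonin (Htr), 5 dopamine (Drd), 8 adrenergic (Adra and Adrb) and 5 muscarinic (Chrm) receptor genes, chosen by name and each found once by its Ensembl gene identifier. Expression was measured by RNA-seq in whole hippocampus of C57BL/6 mice (C57BL/6J in the methods) aged 3 to 6 months, with 3 control and 3 p300-ifKO libraries, each from a single male mouse according to the methods. In p300-ifKO mice the floxed Ep300 gene, which encodes the lysine acetyltransferase p300, was recombined in adulthood by Camk2a-creERT2, a tamoxifen-inducible Cre recombinase active in forebrain excitatory neurons, so that interneurons, glia and vascular cells in the same tissue kept the gene. Mice of both groups received tamoxifen 5 times (20 mg/mL in corn oil). The protocol describes the controls as littermates without the creERT2 transgene, whereas the description line of the control samples names Camk2a_creERT2.

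All but the Htr3 genes encode receptors that act through heterotrimeric G proteins. Gs-coupled receptors raise cyclic AMP through adenylyl cyclases, Gi/o-coupled receptors lower it and open potassium channels, and Gq/11-coupled receptors activate phospholipase C beta; Htr3a and Htr3b encode subunits of a serotonin-gated cation channel. The transmitters themselves are made by neurons whose cell bodies lie mostly outside the hippocampus, in the raphe, locus coeruleus, midbrain and medial septum, so hippocampal RNA reports the receiving side of these systems. In the hippocampus they are known for setting excitability, plasticity and memory encoding according to arousal and novelty.

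The libraries held 23151568 to 28433823 counted reads. The targeted gene followed the labels in its group mean: Ep300 had 1545, 1474 and 2334 normalized counts (counts divided by the size factor of the library) in control replicates 1, 2 and 3, and 478, 1350 and 912 in p300-ifKO replicates 1, 2 and 3. The p300-ifKO libraries lay below every control library, although p300-ifKO replicate 2 was close to the controls. The log2 fold change of Ep300 was -0.97 ± 0.33 (SE, unadjusted p = 0.0037, adjusted p = 0.991, DESeq2). The test therefore did not call the targeted gene itself. Ep300 has 14273 exonic bases. Over 15451 genes with at least 20 normalized counts on average, the log2 fold change had a Spearman rho of -0.51 with exonic length. The part of length in the Ep300 values was not tested. Crebbp, the paralog of Ep300, has 13540 exonic bases and had a log2 fold change of -0.05 ± 0.11 (SE). Esr1 reads can come from the creERT2 transgene, which carries the ligand-binding part of an estrogen receptor. Esr1 had 87.2 to 109 normalized counts in the control and 2416 to 4217 in the p300-ifKO libraries. These values go with the protocol, in which controls lack the transgene, rather than with the description line. Transgene and loss of p300 thus differed together between the groups and cannot be told apart here. The tissue carried its defining markers: Slc17a7, the vesicular glutamate transporter of excitatory neurons, had at least 31103 normalized counts in each library.

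Upstream sequence is shown for Drd5 and Htr2c, the receptor genes with the lowest unadjusted p (0.014 and 0.054, DESeq2), in opposite directions. Both had an adjusted p of 0.991. Also shown is the only receptor gene whose window carried the core letters of a cyclic AMP response element (CRE) before its annotated transcript. The CRE is the binding site of CREB, a factor that recruits p300 and its paralog CBP. The bases shown precede both the RefSeq transcript start and the gene start in GENCODE, from RefSeq sequence on GRCm38.p6. Capitals mark a GC box (GGGCGG on either strand) or a CRE core (TGACG on either strand).
Drd5 (chr5:38319259-38319366, plus strand): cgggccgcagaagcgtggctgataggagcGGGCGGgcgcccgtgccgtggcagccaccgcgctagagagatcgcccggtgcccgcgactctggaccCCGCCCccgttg
Htr2c (chrX:146962263-146962512, plus strand): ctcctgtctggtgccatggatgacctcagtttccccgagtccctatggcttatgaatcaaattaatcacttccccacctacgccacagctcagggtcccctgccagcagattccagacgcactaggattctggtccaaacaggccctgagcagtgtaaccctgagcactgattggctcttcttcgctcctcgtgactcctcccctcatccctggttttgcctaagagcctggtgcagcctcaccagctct
Adrb1 (chr19:56722009-56722049, plus strand): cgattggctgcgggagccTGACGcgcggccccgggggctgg
The stretch upstream of Drd5 held 2 GC boxes, and that of Htr2c held neither motif. Over the 300 bases from 250 before to 50 after the RefSeq start, GC content was 70.3% for Drd5 and 56.3% for Htr2c. Of the 32 receptor genes, 25 had such a window; Htr3a, Htr4, Htr5b, Adra1a, Adra1d, Adrb3 and Chrm1 were not matched. The full CRE (TGACGTCA) was in 0 of these 25 genes, against 1.79% of all 32851 windows. The core, which is also part of the full CRE, was in 3 genes (Adra2a, Adrb1 and Htr7), against 20.8% of all windows. The GC box was in 15 of the 25 genes, among them Drd1, Drd2, Drd5, Htr1a, Htr2a, Chrm2 and Chrm4, against 35.7% of all windows, and a TATA motif (TATAAA, either strand) was in Adra2a alone, against 13.6%. A gene with more than 1 window was counted once if any window matched, so the share of genes and the share of windows are not on the same footing. These matches describe the letters only.

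Receptor levels spanned a wide range in control hippocampus. Of the 32 genes, 26 had a mean of at least 20 normalized counts over the 6 libraries: 11 serotonin, 3 dopamine, 7 adrenergic and 5 muscarinic receptor genes. The other 6 (Htr1d, Htr2b, Htr3b, Drd3, Drd4 and Adra2b) had 0 to 6 raw counts in any library. Htr3b had 0, 0 and 2 raw counts in the control and 0, 0 and 1 in the p300-ifKO libraries, and Drd3 had 0, 0 and 1 against 0, 2 and 1; at this depth both groups were at or under 3 counts in all, so no fold was taken. Htr2b, Adra2b, Drd4 and Htr1d summed to 11, 13, 8 and 13 raw counts over the 3 control libraries and to 4, 6, 4 and 16 over the 3 p300-ifKO libraries, too few to compare.

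Per kilobase of exon, the muscarinic receptor gene Chrm1, the main Gq/11-coupled acetylcholine receptor of pyramidal neurons, was the most abundant of the 32, with 1107 ± 54.6 normalized counts per kilobase in the control libraries (SD, n = 3). It made up 31.0% ± 1.48 of the summed per-kilobase level of the 32 genes in the controls and 32.6% ± 1.51 in p300-ifKO mice (SD, n = 3 each). Adra1d, a Gq/11-coupled receptor for noradrenaline, followed with 483 ± 56.7 and Chrm3, another Gq/11-coupled muscarinic receptor, with 228 ± 3.80. These 3 genes were each separated from the next by non-overlapping control libraries. Chrm4 (200 ± 12.9), Htr3a (195 ± 33.0) and Htr1a (177 ± 11.5) came next, each overlapping with the one after it up to Htr1a. Of the 25 neighbouring pairs among the 26 measured genes, 4 had control libraries that did not overlap, so most of the order below the leading genes was within the spread between mice.

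**Figure D1:**
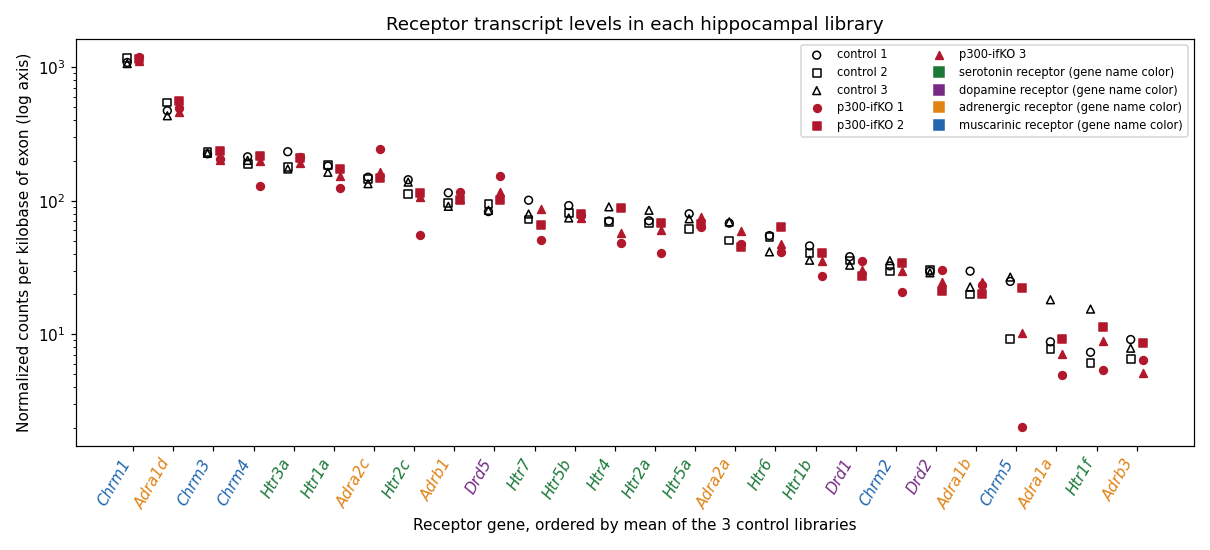
Levels of the 26 receptor genes with a mean of at least 20 normalized counts, in normalized counts per kilobase of exon on a log axis, 1 point per library (open: control, filled: p300-ifKO). Chrm1 lies near 1107 in the controls and Adrb3 near 7.84, and the filled circle of p300-ifKO replicate 1 is the lowest point for 12 genes and the highest for 5.

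By transmitter, muscarinic genes held 44.5% ± 1.21 of the summed per-kilobase level in the controls and 44.9% ± 0.233 in p300-ifKO mice (SD, n = 3 each). Serotonin receptor genes held 27.9% ± 1.82 and 24.8% ± 2.65, adrenergic genes 23.3% ± 0.895 and 25.1% ± 1.84, and dopamine receptor genes 4.30% ± 0.182 and 5.12% ± 1.13. By coupling, Gq/11-coupled receptors held 58.3% ± 2.05 and 58.4% ± 0.916, Gi/o-coupled receptors 23.9% ± 0.921 and 23.03% ± 0.815, and Gs-coupled receptors 12.4% ± 0.475 and 12.8% ± 0.378. The group means differed most for serotonin, where the p300-ifKO libraries held 21.8%, 26.6% and 26.1% and the controls 29.5%, 25.9% and 28.2%; the groups overlapped.

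None of the 32 genes passed the test between p300-ifKO and control at an adjusted p under 0.05 (two-sided Wald test of DESeq2 with Benjamini-Hochberg adjustment over all genes tested), where 0.00610% of all genes did. Ep300, the targeted gene, did not pass it either. At an unadjusted p under 0.05 there was 1 receptor gene of the 26 measured, Drd5, in the same test, and 1 each by edgeR and by limma-voom, both of which had 0 at the adjusted threshold. Of all genes tested, 1.32% by DESeq2, 2.30% by edgeR and 2.15% by limma-voom were under the unadjusted threshold, and 0.0117% passed the adjusted one by edgeR and 0.0117% by limma-voom. Measured as log2 fold change, 19 of the 26 genes were lower in p300-ifKO and 7 higher (73.1% lower), against 50.7% lower among the 15451 genes with a mean of at least 20. The median log2 fold change was -0.18 over the 26 genes and -0.20 over all 32, and -0.0046 over those 15451 genes. Without p300-ifKO replicate 1 the median of the 26 was -0.08, with 17 lower, and with 1 surrogate variable in the model it was -0.07, with 16 lower. The 95% interval of the log2 fold change lay within a 2-fold change in either direction for 21 of the 26 genes, against 88.6% of all genes at that level, and standard errors ran from 0.10 for Chrm1 to 0.71 for Chrm5. In bulk tissue, fewer cells of a type and less RNA per cell cannot be told apart.

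**Figure D2:**
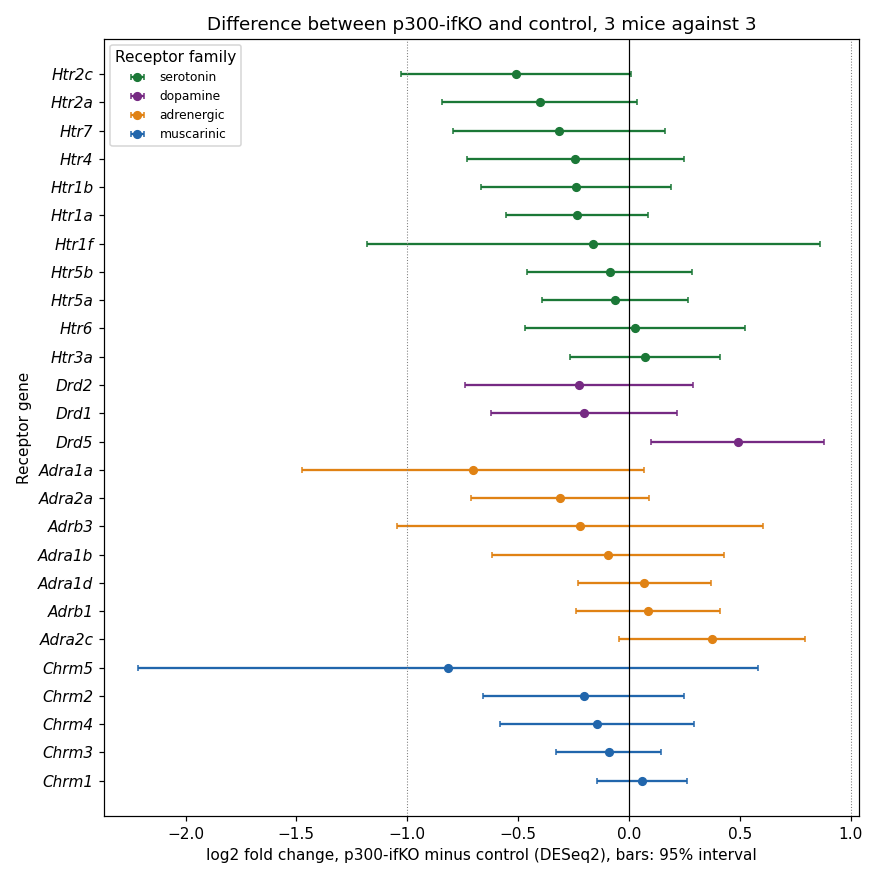
The log2 fold change of each measured receptor gene, p300-ifKO minus control, from DESeq2, with its 95% interval and grouped by transmitter; dotted lines mark a 2-fold change. The interval of Drd5 (0.10 to 0.88) is the only one that leaves out 0, and those of Htr1f, Adra1a, Adrb3 and Chrm5 reach past a 2-fold change by the most.

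Drd5 encodes a Gs-coupled dopamine receptor that hippocampal pyramidal neurons carry (Ensembl ENSMUSG00000039358, GRCm38 chromosome 5, 38319367 to 38322518, plus strand, a single exon). It had 262, 297 and 267 normalized counts in control replicates 1, 2 and 3 and 479, 317 and 366 in p300-ifKO replicates 1, 2 and 3. The groups did not overlap, with p300-ifKO replicate 1 far above the rest and p300-ifKO replicate 2 just above control replicate 2. Drd5 was the only one of the 26 genes without overlap, which is 3.85% of them, against 7.18% of all genes at that level. Its log2 fold change was 0.49 ± 0.20 (SE; unadjusted p = 0.014, adjusted p = 0.991, DESeq2). Leaving out each library in turn gave 0.31 to 0.62: without p300-ifKO replicate 1 it was 0.31 (unadjusted p = 0.083), and without p300-ifKO replicate 2 it was 0.62 (adjusted p = 0.036), in a fit where 8.72% of the genes with an adjusted p were called and 15 of the 32 receptor genes had one. Of the exonic bases of Drd5, 48.6% lie antisense to the long noncoding gene Gm26560, and whether reads were counted by strand is not given in the sources used here; Gm26560 itself had 4.82 to 14.1 normalized counts.

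The other dopamine receptor genes did not follow Drd5. Drd1, the Gs-coupled receptor best known from striatal neurons, had 138, 129 and 119 normalized counts in the controls and 129, 98.97 and 109 in p300-ifKO mice, with a log2 fold change of -0.20 ± 0.21 (SE). The groups overlapped. Drd2, a Gi/o-coupled receptor found in hilar mossy cells, had a log2 fold change of -0.22 ± 0.26 (SE) at 53.9 to 77.3 normalized counts. When p300-ifKO replicate 2 was left out, these values were -0.12 for Drd1 and -0.10 for Drd2. The 6 striatal marker genes, which would mark tissue carried over from a neighbouring region rich in Drd1 and Drd2, summed to 651 to 827 normalized counts in the controls and 668 to 822 in p300-ifKO mice, and 0 of 6 passed the test; their part in the Drd1 and Drd2 values was not tested.

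Among serotonin receptor genes, 9 of the 11 measured had a log2 fold change below 0, with a median of -0.24 and a range of -0.51 to 0.07, and 0 passed the adjusted threshold. Their median was -0.096 without p300-ifKO replicate 1, -0.15 without control replicate 3 and -0.11 with 1 surrogate variable, where 7 of 11 were below 0. Htr2c, a Gq/11-coupled receptor abundant in choroid plexus and also present in hippocampal neurons (ENSMUSG00000041380, GRCm38 chromosome X, 146962513 to 147197277, plus strand), had the lowest of these values. It had 1340, 1052 and 1286 normalized counts in the controls and 512, 1075 and 992 in p300-ifKO replicates 1, 2 and 3. The groups overlapped because p300-ifKO replicate 2 was above control replicate 2, and p300-ifKO replicate 1 stood apart at the bottom. The log2 fold change was -0.51 ± 0.27 (SE; unadjusted p = 0.054, adjusted p = 0.991, DESeq2). It was -0.25 without p300-ifKO replicate 1, whereas leaving out p300-ifKO replicate 2 gave -0.70 (adjusted p = 0.042, the other call among the receptor genes in that fit).

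Because epithelial cells of the choroid plexus express Htr2c strongly, their markers were read beside it. The 9 choroid plexus genes summed to 4560 to 10072 normalized counts in the controls and 5964 to 11912 in p300-ifKO mice, and 0 of 9 passed the test; 7 of the 9 had a log2 fold change above 0, with a median of 0.13. Ttr, their most specific abundant transcript, had 646, 118 and 2804 normalized counts in control replicates 1, 2 and 3 and 827, 908 and 4488 in p300-ifKO replicates 1, 2 and 3. Ttr was highest in p300-ifKO replicate 3 and lowest in control replicate 2. The part of choroid plexus tissue in the Htr2c values was not tested.

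Htr2a, the other measured Gq/11-coupled serotonin receptor gene, had 397, 380 and 476 normalized counts in the controls and 227, 383 and 338 in p300-ifKO mice (log2 fold change -0.40 ± 0.22, SE). Htr1a, the Gi/o-coupled receptor that inhibits pyramidal neurons, had 816, 827 and 733 in the controls and 562, 771 and 684 in p300-ifKO mice (log2 fold change -0.24 ± 0.16, SE; 95% interval -0.56 to 0.08). For both genes p300-ifKO replicate 1 was the lowest library and p300-ifKO replicate 2 lay inside the control range. Without p300-ifKO replicate 1 the log2 fold change was -0.21 for Htr2a and -0.12 for Htr1a, and with 1 surrogate variable it was -0.14 and -0.13. Htr3a, carried by a class of interneurons in which the driver is not active, had 485, 373 and 360 normalized counts in the controls and 447, 432 and 402 in p300-ifKO mice, with a log2 fold change of 0.07 ± 0.17 (SE). The groups overlapped, and the 10 interneuron markers summed to 28625 to 32766 normalized counts in the controls and 27365 to 35071 in p300-ifKO mice. The Gs-coupled Htr4, Htr6 and Htr7, which raise cyclic AMP, had log2 fold changes of -0.24, 0.03 and -0.31, the Gi/o-coupled Htr1b, Htr1f, Htr5a and Htr5b of -0.24, -0.16, -0.06 and -0.09, and none was under an unadjusted p of 0.05.

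Adrenergic receptor genes showed values on both sides, with 4 of 7 below 0 and a median log2 fold change of -0.09. Adra1d, the most abundant of them, had 897, 1035 and 823 normalized counts in the controls and 945, 1066 and 877 in p300-ifKO mice (log2 fold change 0.07 ± 0.15, SE; 95% interval -0.23 to 0.37). The libraries of the groups were interleaved. Adra2c, a Gi/o-coupled receptor that limits transmitter release, had 517, 501 and 462 in the controls and 844, 512 and 563 in p300-ifKO mice (log2 fold change 0.37 ± 0.21, SE; unadjusted p = 0.081). The high value came from p300-ifKO replicate 1, and without that library the log2 fold change was 0.12.

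Adra1a, a Gq/11-coupled receptor of low abundance here, had 76.6, 67.2 and 158 normalized counts in the controls and 43.0, 80.4 and 61.7 in p300-ifKO mice. Control replicate 3 stood well above the other controls, and the log2 fold change of -0.70 ± 0.39 (SE; unadjusted p = 0.075) was -0.21 without it. Adrb1, the Gs-coupled beta receptor through which noradrenaline promotes hippocampal plasticity, had 388, 324 and 307 in the controls and 393, 341 and 348 in p300-ifKO mice (log2 fold change 0.09 ± 0.17, SE). The groups overlapped. Adra2a, Adra1b and Adrb3 had log2 fold changes of -0.31, -0.09 and -0.22; for Adrb3, 24.9% of the exonic bases lie antisense to Gm45470.

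Of the 5 muscarinic receptor genes, 4 had a log2 fold change below 0, with a median of -0.14. The median was -0.029 without p300-ifKO replicate 1, -0.28 without p300-ifKO replicate 2 and 0.028 with 1 surrogate variable, where 2 of 5 were below 0. Chrm1 had 7046, 7582 and 6913 normalized counts in the controls and 7695, 7522 and 7202 in p300-ifKO mice, with a log2 fold change of 0.06 ± 0.10 (SE) and a 95% interval of -0.15 to 0.26. Chrm3 had 1405, 1451 and 1417 in the controls and 1285, 1464 and 1264 in p300-ifKO mice, with -0.09 ± 0.12 (SE) and an interval of -0.33 to 0.15. For each gene the libraries of the groups overlapped, and these were the narrowest intervals of the 26 genes. The Gi/o-coupled Chrm2 and Chrm4, which act on release sites and excitability, had log2 fold changes of -0.20 and -0.14. Chrm5, a scarce Gq/11-coupled member, had 39.8, 14.7 and 42.9 normalized counts in the controls and 3.22, 35.3 and 16.4 in p300-ifKO mice. It had the lowest log2 fold change of the 26 genes, -0.81 ± 0.71 (SE; unadjusted p = 0.254), and it was -0.33 without p300-ifKO replicate 1, -1.71 when p300-ifKO replicate 2 was left out (unadjusted p = 0.020, DESeq2) and -0.14 with 1 surrogate variable.

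**Figure D3:**
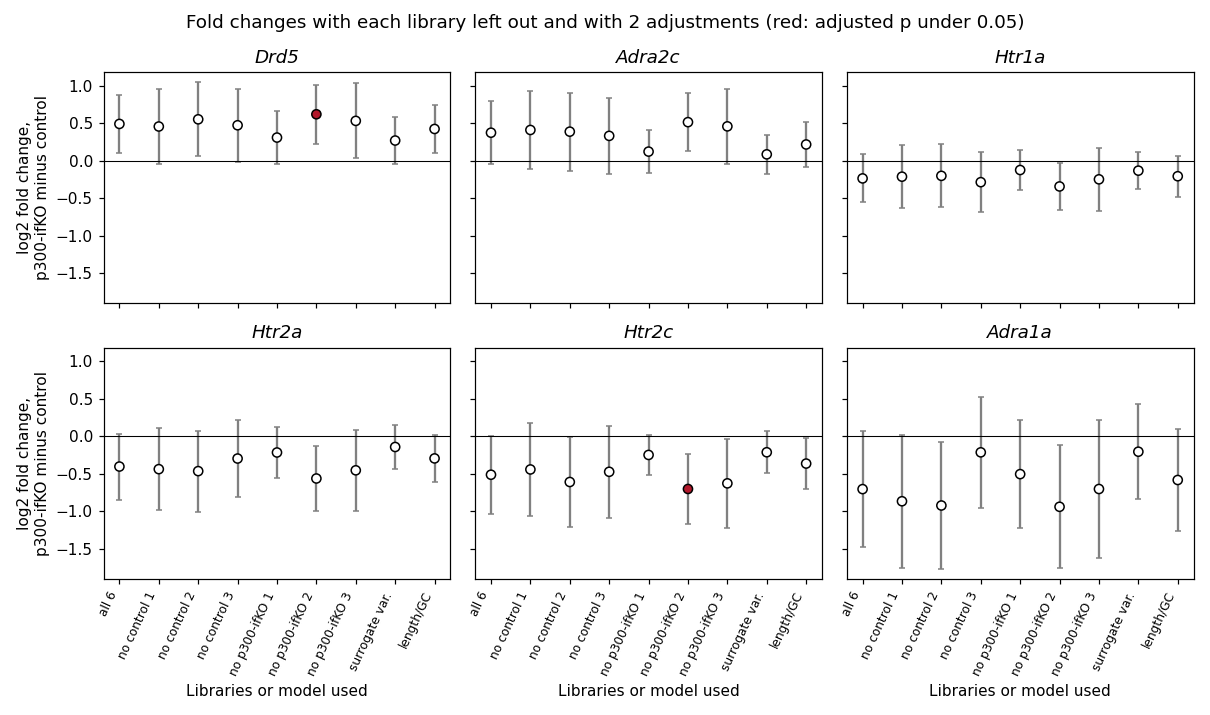
The log2 fold change (p300-ifKO minus control, bars: 95% interval) of 6 receptor genes with all 6 libraries, with each library left out, and with 1 surrogate variable or with length and GC offsets. Drd5 runs from 0.27 to 0.62 and Htr2c from -0.70 to -0.21; filled points, seen only without p300-ifKO replicate 2, have an adjusted p under 0.05.

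The p300-ifKO replicate 1 library was often the lowest or highest of the 6, among the receptor genes and across all genes. In p300-ifKO replicate 1, 12 of the 26 measured genes had their lowest value of the 6 libraries (46.2%, against 39.0% of all genes at that level), and 8 of these 12 were serotonin receptor genes. The same library was the highest of 6 for 5 genes, Drd5, Drd2, Adra2c, Adrb1 and Chrm1 (19.2%, against 38.3%). The median log2 ratio of this library to the mean of all 6 was -0.20 over the 26 genes and -0.0023 over all genes at that level. GC content moved with these values. Across the 26 genes, which share the library and its depth, the log2 ratio of p300-ifKO replicate 1 had a Spearman rho of 0.57 with GC content of the longest transcript. Its rho with exonic length was -0.23. Across all genes these were 0.35 and -0.56. Across all genes the rho with exonic length was 0.22, 0.19 and 0.49 in control replicates 1, 2 and 3. It was 0.50 in p300-ifKO replicate 2 and -0.32 in p300-ifKO replicate 3. Leaving out p300-ifKO replicate 2 thus left positive values in the control libraries and negative ones in the p300-ifKO libraries. The part of length in the Drd5 and Htr2c calls of that fit was not tested. In p300-ifKO replicates 2 and 3 the rho with GC content was -0.21 and 0.02 across the receptor genes, and in control replicate 3 it was -0.57. GC content of the longest transcript was 65.5% for Adra2c, 52.7% for Drd5 and 42.1% for Htr2c.

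**Figure D4:**
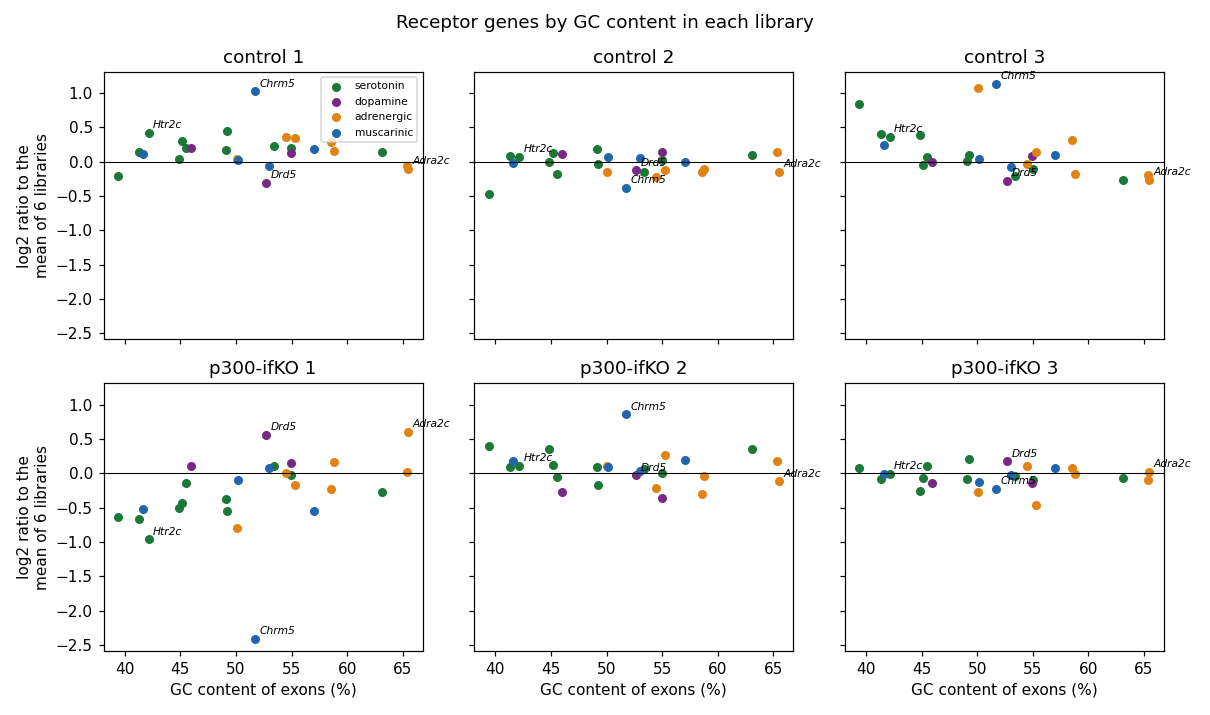
For each library, the log2 ratio of a receptor gene to its mean over the 6 libraries against the GC content of its longest transcript, 1 point per gene and colored by transmitter. In p300-ifKO replicate 1 the GC-poor Htr2c (42.1%) lies low and the GC-rich Adra2c (65.5%) high, while control replicate 3 shows the opposite slope.

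With offsets for length and GC content in the model, the log2 fold change of Drd5 was 0.42, that of Htr2c -0.36 and that of Adra2c 0.22, and 22 of the 26 genes were below 0 with a median of -0.17. With 1 surrogate variable, which took its most extreme value in p300-ifKO replicate 1, the same genes had 0.27, -0.21 and 0.08, and no receptor gene was under an unadjusted p of 0.05. Levels of excitatory neuron markers were read beside Drd5. The 8 genes summed to 66073 to 77039 normalized counts in the controls and 71896 to 85268 in p300-ifKO mice. The sum was highest in p300-ifKO replicate 1, as for Drd5, but 4 of the 8 genes had a log2 fold change above 0 and 4 below. Their median was 0.0093, and 0 of 8 passed the adjusted threshold. The part of GC content and of these markers in the Drd5 value was not tested beyond these fits.

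The signalling genes around the receptors were read from 7 lists holding 55 genes, and 0 passed the adjusted threshold by DESeq2, edgeR or limma-voom. At an unadjusted p under 0.05 there was 1 of 55 by DESeq2 (1.82%, near the 1.32% of all genes). There were 3 of the 50 tested by edgeR and 2 of the 50 tested by limma-voom, all lower in p300-ifKO. These shares were above the 2.30% and 2.15% of all genes, though on few genes. The gene under it by DESeq2 was Adcy5, an adenylyl cyclase that Gi/o-coupled receptors inhibit, with 3577, 3734 and 3529 normalized counts in the controls and 2847, 3331 and 3003 in p300-ifKO mice (log2 fold change -0.24 ± 0.12, SE; unadjusted p = 0.039, adjusted p = 0.991, DESeq2). The highest p300-ifKO value was under the lowest control value. Such a lack of overlap, in either direction, was seen in 7.18% of all genes with a mean of at least 20. All 8 adenylyl cyclase genes had a log2 fold change below 0, with a median of -0.22, beside 5 of 8 G protein alpha subunit genes (median -0.09), 3 of 4 phospholipase C beta genes (median -0.08), 4 of 7 genes of protein kinase A and its target DARPP-32 (median -0.04) and 5 of 10 receptor kinase, arrestin and RGS genes (median -0.03). Of the 55 genes, 69.1% were below 0, against 50.7% of the 15451 genes with a mean of at least 20. Only 48 of the 55 reached that mean, so the shares are not on the same footing. The 8 cyclase genes summed to 31337 to 40870 normalized counts in the controls and 24394, 35038 and 27820 in p300-ifKO replicates 1, 2 and 3. Across those 15451 genes the log2 fold change had a Spearman rho of -0.51 with exonic length and 0.31 with GC content. The part of length and GC content in the cyclase values was not tested. Without p300-ifKO replicate 2, Gnaq, the alpha subunit through which Gq/11-coupled receptors act, was the 1 gene of the lists called. That fit gave 41 of the 55 genes an adjusted p, and it called 8.72% of all genes with one.

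Genes for transmitter breakdown and uptake were well measured, with 4 of 7 lower and a median log2 fold change of -0.02. Genes for synthesis and presynaptic transport were mostly scarce, since 5 of 11 had a mean of at least 20 normalized counts. Of these 11 genes, 9 were lower, with a median of -0.16. Tph2 and Th, which make serotonin and catecholamines, had 27.0 to 58.0 and 16.8 to 30.8 normalized counts over the 6 libraries, Chat, which makes acetylcholine, 0 to 1.99, and the serotonin transporter gene Slc6a4 0 to 3.98. No gene of either list was under an unadjusted p of 0.05 by DESeq2.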

How the data were processed

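Per the sources used here, the authors sequenced 50-base single-end libraries from hippocampal RNA, trimmed them (FastQC 0.11.8 and Trim Galore 0.6.4), aligned them to mm10 (GRCm38) with STAR 2.6.1, kept reads with a mapping quality above 10 and counted them over Ensembl exons with Rsubread; they deposited raw counts per gene. The strand setting is not given in the sources used here. Here, R 4.3.3 with DESeq2 1.42.0 (the tool of the study) compared 3 p300-ifKO with 3 control libraries over all genes (Wald test, Benjamini-Hochberg adjustment, threshold 0.05). Alternatives were edgeR 4.0.16, limma 3.58.1 (voom), sva 3.50.0, TMM factors, a minimum of 10 counts in 3 libraries, length and GC offsets, a replicate block and each library left out; fits were tested on simulated data. Length was the exonic length deposited with the counts. GC content was that of the longest GENCODE transcript of each gene on GRCm38 (99.4% of identifiers matched). The members and lists were chosen with earlier results of these data known. Every library value is printed for the 2 most abundant genes per kilobase of each family, genes with an unadjusted p under 0.05, and, among genes with a mean of at least 20 normalized counts, those without overlap between groups and the 3 largest log2 fold changes in each direction, with Htr2a added after its values were seen.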

Additional observations from a re-analysis of the deposited data

How the results depend on the processing

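The count of receptor genes past the adjusted threshold was 0 in every alternative except without p300-ifKO replicate 2, so that leaving out libraries gave 0 to 2, and for the signalling genes 0 to 1; a threshold of 0.1 and turning off independent or Cook filtering left both at 0. The count under an unadjusted p of 0.05, 1 with all libraries, was 0 with 1 surrogate variable, 5 by edgeR with no filter, 2 with length and GC offsets and 0 to 8 with a library left out (0 without control replicate 1, control replicate 3 or p300-ifKO replicate 1; leaving out p300-ifKO replicate 2 gave 8). The share of all genes under that threshold was not computed for these alternatives, so the counts are not read as a result about the receptors. Without p300-ifKO replicate 2, 8.72% of all genes with an adjusted p passed the adjusted threshold. Leaving out libraries moved the median log2 fold change of the 26 measured genes between -0.20 and -0.085, that of adrenergic genes between -0.21 and 0.053, and offsets took the latter to -0.15. Same-numbered libraries deviated together with correlations of 0.27, -0.28 and 0.14, which on 3 libraries per group cannot settle whether they were paired. The library names carry the same numbers in both groups, and the sources used here do not say whether these mark pairs. With the replicate block 2 receptor genes were under an unadjusted p of 0.05 (DESeq2) and 0 were called.

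Of 27 genes followed singly, 16 kept the sign of their log2 fold change under all alternatives that gave a value. With 1 surrogate variable it turned for Htr1f (0.38), Htr4 (0.051), Adrb1 (-0.011), Chrm2 (0.028) and Chrm4 (0.060). With length and GC offsets it turned for Htr3a (-0.035), Htr5a (0.028), Htr6 (-0.11), Adra1d (-0.12) and Adrb1 (-0.0039). With a library left out the ranges that crossed 0 were -0.41 to 0.36 for Htr1f, -0.0046 to 0.22 for Htr3a, -0.16 to 0.025 for Htr5a, -0.15 to 7.6e-05 for Htr5b, -0.17 to 0.15 for Htr6, -0.21 to 0.089 for Adra1b, -0.0086 to 0.17 for Adra1d and -0.28 to 0.046 for Chrm4. The cause was not tested. At this depth 6 of the receptor genes have too few counts for any comparison.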
